A study of Mus musculus with 2 samples.

Results

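Cycling macrophages were described in CD45+ cells sorted from tumours of mice bearing AB1-HA, a mouse mesothelioma cell line that carries the influenza haemagglutinin as a model antigen. CD45 is the surface phosphatase of leukocytes. The 2 groups were mice given a control antibody and mice given an antibody against VEGF, the growth factor that drives new vessels, and both groups bore the same tumour. Each group was 1 single-cell RNA-seq library (10x Genomics 3-prime chemistry), so no difference between groups has a replicate check, no test was made and intervals cover counting error only. The strain, age and number of the mice, the dose and the time of collection are not given in the sources used here.

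Macrophages were taken as barcodes with at least 5000 UMIs (unique molecular identifiers, each standing for 1 captured transcript), at most 10% mitochondrial UMIs, at most 2 UMIs of the collagens Col3a1 and Col1a2 together, at least 5 of 9 macrophage transcripts (C1qa, C1qb, C1qc, Adgre1, Apoe, Mrc1, Trem2, Ms4a7 and Cd68) and no UMI of the T-cell gene Cd3e. This left 6049 of 11687 barcodes of the control library and 5020 of 8825 of the anti-VEGF library. Each cell was scored by the mean, over Mki67, Top2a, Birc5, Nusap1 and Aurkb, of the natural log of 1 plus the UMIs per 10000, and the top 10% with the libraries pooled were called cycling. They were 1106 of 11069 macrophages, and of 20512 barcodes in all. The other 9963 macrophages serve as the comparison. The score that divided them was 1.45724, with 2 cells inside it at 1.45724 and 1.45792 and 2 cells outside at 1.45721 and 1.45676. There was no gap there: 236 cycling macrophages lay within 0.1 above that score and 209 other macrophages within 0.1 below it.

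A dividing cell copies its DNA in S phase, condenses and separates the chromosomes in mitosis, and is cut in 2 at cytokinesis. E2F factors drive the genes for DNA replication when cyclin-dependent kinases inactivate the Rb family, and a later set of genes for mitosis is held down in resting cells by the DREAM complex and switched on by B-Myb and FoxM1. Tissue macrophages can divide in place in response to the growth factor Csf1, while others arise from blood monocytes, and the factor c-Maf is known to restrain their division.

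The gate itself required macrophage transcripts, so their number only describes the cells. The median cycling macrophage held 8 of the 9 macrophage transcripts in the control library and 9 in the anti-VEGF library. Ptprc, which encodes CD45 and was not part of the gate, was detected in 96.7% and 97.8% of them, and the cells had been sorted on CD45. The smallest number the gate allowed, 5 of 9, was found in 6.68% and 6.71%. The cells were deeper than the rest: the median cycling macrophage had 34263 UMIs in the control library and 35598 in the anti-VEGF library, against 24141.5 and 23907 in other macrophages. Mitochondrial shares had medians of 3.30% and 3.20%, against 3.57% and 3.29%. Across libraries, 35 barcode sequences were shared, 9 of them among the macrophages and 0 among the cycling macrophages.

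Members were chosen by the measured levels of the 5 score genes, so these are given as a description. Levels here and below are CPM, the UMIs of a gene summed over a class of cells and scaled to a common total of UMIs, and a 3-prime UMI count is not compared between genes. Mki67 (ENSMUSG00000031004), which encodes the Ki-67 coat of mitotic chromosomes, was at 637 CPM (95% interval 628 to 647) in control and 681 (669 to 695) in anti-VEGF cycling macrophages, against 95.3 and 74.7 in other macrophages. Top2a (ENSMUSG00000020914), the topoisomerase that untangles sister chromatids, was at 845 and 870 CPM against 96.1 and 75.6. Birc5 (ENSMUSG00000017716), the survivin subunit of the chromosomal passenger complex, was at 650 and 670 CPM against 118 and 85.0. Nusap1 (ENSMUSG00000027306), a microtubule-binding protein of the spindle, was at 294 and 300 CPM against 24.3 and 18.3, and Aurkb (ENSMUSG00000020897), the kinase of the passenger complex, at 210 and 202 CPM against 22.8 and 17. All 5 transcripts were found in 1095 of the cycling macrophages and 4 in the other 11.

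The score was a continuous scale and not a pair of separate populations. A score of 0 was held by 34.3% of all macrophages, and 992 macrophages below the dividing score also had all 5 transcripts, 596 in the control library and 396 in the anti-VEGF library. Medians among cycling macrophages were 1.69 and 1.70, and among other macrophages 0.106 and 0.0493. The plot of scores by library shows the tail that the rule took.

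**Figure D1:**
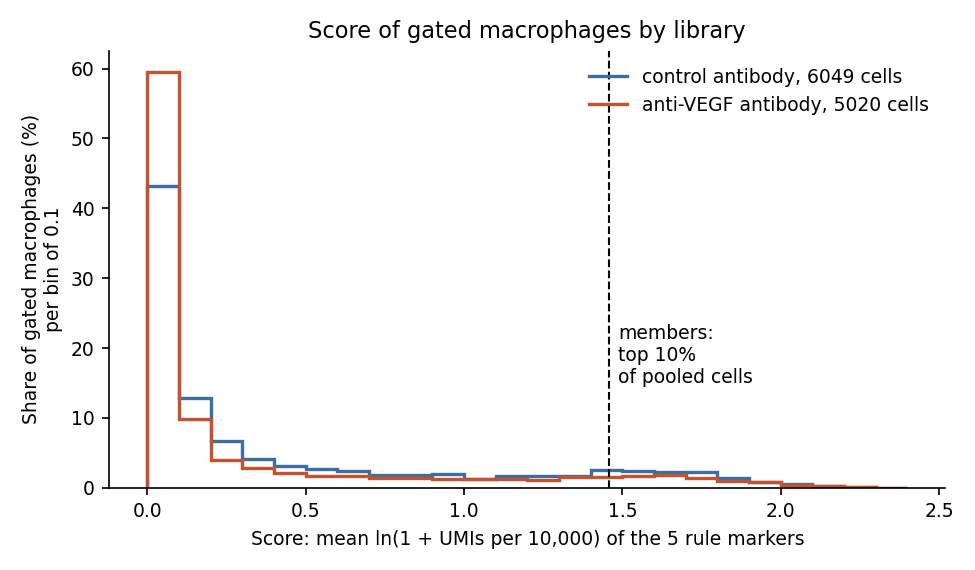
Distribution of the score (horizontal axis, mean natural log of 1 plus UMIs per 10000 over the 5 score genes) among macrophages of each library (vertical axis, percent of macrophages). The line marks 1.45724, above which 689 control and 417 anti-VEGF cells were called cycling, and no gap is seen at the line.

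Some of the promoters of these genes carry letters that are known as elements of cell-cycle promoters. Windows of 200 bases before the start site are shown for 3 of the score genes, for Ccnb2, a mitotic cyclin, and for Mcm6, a subunit of the replicative helicase, because mitosis and replication genes separate in the results that follow. They are RefSeq sequences on GRCm38.p6, 5′ to 3′ on the strand of the gene. Capitals mark TTTGAA (the core of the CHR, an element of DREAM, B-Myb and FoxM1 target genes), CCAAT (bound by NF-Y) and the E2F motif TTTNNCGC in which both N were C or G, each searched on both strands. Mki67 is read from chr7:135716380-135716579 (minus strand), Top2a from chr11:99024190-99024389 (minus), Birc5 from chr11:117849037-117849236 (plus), Ccnb2 from chr9:70421555-70421754 (minus) and Mcm6 from chr1:128359706-128359905 (minus).
Mki67: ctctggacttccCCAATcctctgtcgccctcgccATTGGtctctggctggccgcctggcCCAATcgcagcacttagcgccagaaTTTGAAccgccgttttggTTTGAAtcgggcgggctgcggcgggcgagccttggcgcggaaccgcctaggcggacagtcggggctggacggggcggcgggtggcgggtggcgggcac
Top2a: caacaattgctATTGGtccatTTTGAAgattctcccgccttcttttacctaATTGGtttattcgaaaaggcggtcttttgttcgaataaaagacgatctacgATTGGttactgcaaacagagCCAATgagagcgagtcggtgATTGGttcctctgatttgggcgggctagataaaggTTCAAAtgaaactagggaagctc
Birc5: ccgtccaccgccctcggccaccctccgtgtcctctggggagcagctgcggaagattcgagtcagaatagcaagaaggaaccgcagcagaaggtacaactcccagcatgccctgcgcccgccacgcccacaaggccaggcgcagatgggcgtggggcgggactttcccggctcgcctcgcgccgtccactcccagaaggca
Ccnb2: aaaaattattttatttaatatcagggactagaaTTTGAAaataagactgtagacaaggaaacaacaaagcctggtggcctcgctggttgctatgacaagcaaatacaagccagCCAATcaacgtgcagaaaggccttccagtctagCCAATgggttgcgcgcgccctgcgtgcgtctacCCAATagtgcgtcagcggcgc
Mcm6: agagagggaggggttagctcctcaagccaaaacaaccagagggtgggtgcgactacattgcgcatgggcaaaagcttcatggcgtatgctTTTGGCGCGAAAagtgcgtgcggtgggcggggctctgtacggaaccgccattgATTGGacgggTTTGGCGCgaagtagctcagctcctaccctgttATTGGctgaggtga
The Mki67 and Top2a windows each held 2 CHR letters besides CCAAT, Ccnb2 held 1 CHR and 3 CCAAT, Mcm6 held E2F letters and CCAAT with no CHR, and Birc5 had no match to any of the 3 motifs. Over 250 bases before the start, TTTGAA was found in 36% of 75 promoters of mitosis genes, in 8.33% of 36 promoters of replication genes and in 16% of all 32851 mouse promoters in the table. CCAAT was found in 69.3%, 58.3% and 33.8%, and the E2F motif in 6.67%, 25% and 1.86%. A match is a description of letters in a window and not of a bound factor. Promoters were matched for 67 of 81 mitosis genes, 31 of 37 replication genes and 4 of the 5 score genes. Over 250 bases, 2 of those 4 score genes held TTTGAA together with CCAAT, and the others held none of the 3 motifs.

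Cycling macrophages were a smaller share of macrophages in the anti-VEGF library. They were 689 of 6049 in the control library, 11.4% (exact binomial 95% interval 10.6 to 12.2), and 417 of 5020 in the anti-VEGF library, 8.31% (7.56 to 9.10). The difference was -3.08 percentage points (-4.19 to -1.97) and the ratio 0.729 (0.644 to 0.825). With each cell thinned to 5000 UMIs the shares were 11.5% and 8.23%, so the order was the same at equal depth. A share of cells with at least 3 of the 5 transcripts after thinning was 21.1% against 15.6%, and cells with a UMI of Mki67 were 30.4% against 22.8% after thinning (51.6% and 39.1% before). As a rough measure of free RNA, cells with neutrophil transcripts were thinned to 1000 UMIs beside the macrophages. These neutrophil-marked cells were also chosen to hold at most 2 macrophage transcripts, so they can understate free RNA from macrophages. Mki67 was found in 0 of 26 such cells in the control library, which allows a share of up to 11.5% by a floor of 3 counts (exact upper bound 13.2%), and in 0.575% of 174 in the anti-VEGF library, against 6.94% and 4.89% of other macrophages and 45.9% and 47.2% of cycling macrophages. The median depth of the neutrophil-marked cells was 2487.5 and 2194.5 UMIs.

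Genes of mitosis were higher in cycling than in other macrophages in both libraries, as the choice of cells requires. Among all 12907 genes with enough UMIs in both libraries, 6.74% were at least 1.5-fold higher in both and 5.31% at least 1.5-fold lower in both. Because the score chose the cells with genes of the same cells, these counts describe the class and are read no further. All 16 genes of mitotic entry, 25 of spindle motors and cytokinesis, 20 of the kinetochore and passenger complex, 13 of the spindle checkpoint and anaphase-promoting complex and 7 of condensin were higher in both. The median log2 difference of these lists lay between 1.92 and 2.59 in the control library and between 2.45 and 2.99 in the anti-VEGF library. Each of the 5 medians was larger in the anti-VEGF library, where other macrophages held less of these genes.

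Prc1, which bundles the microtubules of the spindle midzone, was at 359 and 417 CPM in control and anti-VEGF cycling macrophages and at 32.8 and 27.1 CPM in the others, 10.9-fold and 15.4-fold. Ube2c, which loads ubiquitin for the anaphase-promoting complex, was at 1079 and 1118 CPM against 112 and 88.3. Cenpf, a kinetochore protein, was at 417 and 435 CPM against 44.4 and 33.3. In other macrophages, which the score also chose, these 3 genes were lower in the anti-VEGF library. Among kinases and cyclins, Plk1 was at 101 and 106 CPM against 10.9 and 7.58, and Cdk1 at 387 and 416 CPM against 58.6 and 44.1. Ccna2, the cyclin of S and G2 phase, was at 228 and 249 CPM against 34.0 and 27.3, and Ccnb1, a cyclin of mitosis, at 203 and 213 CPM against 25.1 and 18.9. Foxm1, the factor that switches on mitotic genes, was at 53.5 and 57.0 CPM against 10.3 and 8.05. The smallest difference of the 81 mitosis genes was in Wee1, the kinase that holds Cdk1 inactive, at 27.1 and 32.9 CPM against 14.8 and 20.1.

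Chromatin genes of dividing cells followed. Of 14, 13 were at least 1.5-fold higher in both libraries, among them the linker histone Hist1h1b at 334 and 319 CPM against 48.3 and 37.2, and H2afx at 583 and 517 CPM against 82.0 and 57.0. Hmgb2, an abundant chromatin protein, was at 2579 and 2093 CPM against 546 and 381.

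DNA replication genes were a weaker mark of these cells. Of 30 licensing and fork genes, 19 were at least 1.5-fold higher in both libraries, with a median log2 difference of 0.69 and 0.98. Pcna, the sliding clamp of the polymerases, was at 88.9 and 92.7 CPM against 59.5 and 54.4, and Mcm6 at 108 and 84.7 CPM against 82.6 and 54.8. Cdc6, which loads the helicase in G1, was at 5.77 and 5.16 CPM against 7.33 and 5.47, below 1-fold in both libraries. Of 7 genes of nucleotide supply and uracil removal, 6 were higher in both, such as Rrm2, a subunit of ribonucleotide reductase, at 157 and 170 CPM against 44.1 and 32.7, and Tk1, thymidine kinase, at 242 and 224 CPM against 70.4 and 45.3. Ung, which removes uracil from DNA, went the other way: it was at 4.57 and 3.1 CPM in cycling macrophages and at 19.9 and 13.7 CPM in the others.

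Cycling macrophages, which were picked by genes of G2 and mitosis, were placed by their replication and other mitosis genes. A replication mean over 37 genes and a mitosis mean over 81 genes without the 5 score genes were taken in each cell after thinning, and a cell was called high in either above the 90th percentile of all macrophages. In the control library 445 cycling macrophages, 64.6% (60.9 to 68.2), were high in mitosis only, and in the anti-VEGF library 270, 64.7% (60.0 to 69.3). High in replication only were 78, 11.3% (9.05 to 13.9), and 34, 8.15% (5.71 to 11.2). High in both were 92 (13.4%) and 63 (15.1%), and in neither 74 (10.7%) and 50 (12.0%). With the 80th percentile in place of the 90th, high in both were 356 and 200 and high in mitosis only 333 and 214, so mitosis-only cells were no longer most of the control class. The intervals of the libraries overlapped in every class at the 90th percentile. They cover counting error only, and neither group had a replicate library. Whether the makeup by phase differed between antibodies therefore cannot be decided from them. These classes are ranges of a score and not cell types: 86 and 51 cycling macrophages lay within 0.05 of the dividing value for replication, and 159 and 86 for mitosis.

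Most macrophages high in replication genes were not among the cycling macrophages. Of the cells above the replication value, 267 were cycling and 840 were other macrophages, while above the mitosis value 870 were cycling and 237 were not. Other macrophages high in replication only were 548 in the control library, 10.2%, and 254 in the anti-VEGF library, 5.52%. The 5 score genes belong to G2 and mitosis, so the rule leaves out most cells that carry a replication signal alone.

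**Figure D2:**
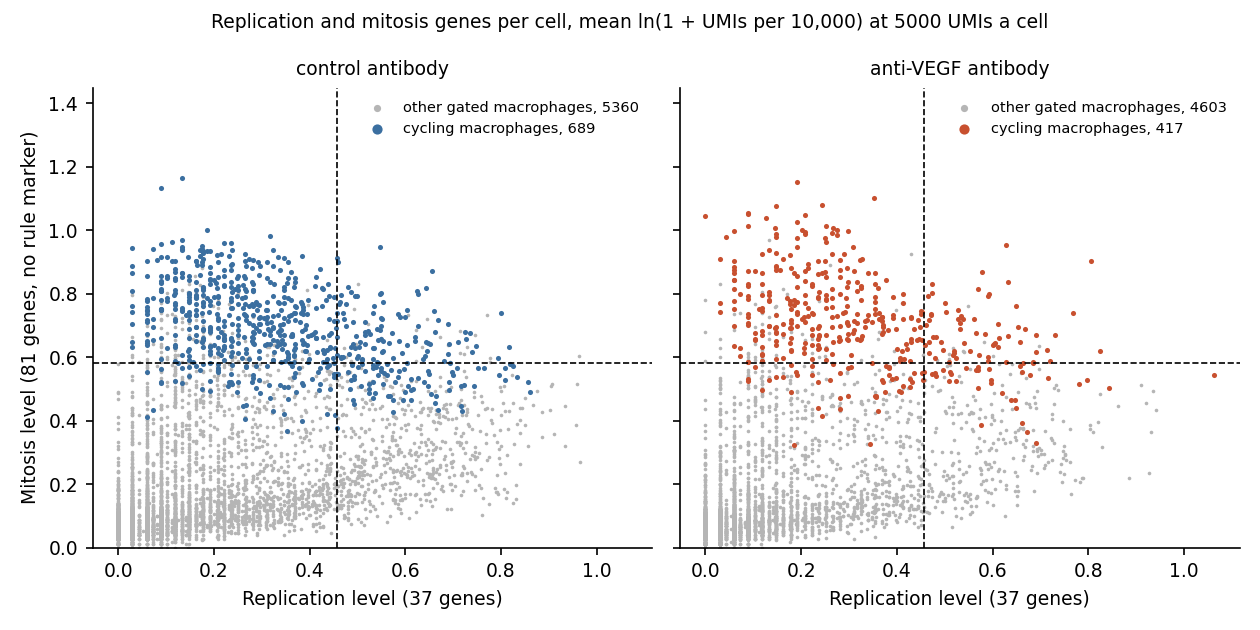
Mean replication level (horizontal axis, 37 genes) and mean mitosis level (vertical axis, 81 genes without the score genes) of each macrophage thinned to 5000 UMIs, both as natural log of 1 plus UMIs per 10000, in 1 panel per library. Cycling macrophages are coloured, the lines mark the 90th percentiles, and 445 control and 270 anti-VEGF cycling macrophages lie in the mitosis-only corner.

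Within the cycling macrophages the classes differed in genes that are known to peak in S phase, and these genes are partly those that set the classes. Ccne2, the cyclin that starts replication, was outside the lists that set the phase classes, and it was at 29.7 CPM in control replication-only cells and 2.24 in mitosis-only cells, and at 43.6 and 1.35 CPM in the anti-VEGF library. E2f1, also outside them, was at 75.8 against 17.4 CPM and at 64.5 against 17.2 CPM. Cdkn1a, the p21 inhibitor, was at 380 against 239 CPM and at 496 against 310 CPM, higher in replication-only than in mitosis-only cells of both libraries. In cells high in neither mean Cdkn1a was at 371 and 314 CPM, close to the replication-only level in the control library. Of the genes that set the classes, Cdc6 was at 20.9 and 22.8 CPM in replication-only cells against 2.85 and 2.42, and Ube2c at 303 and 234 CPM against 1369 and 1432.

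Genes that decide entry into the cycle showed a mixed pattern. Of 15 genes of the cyclin D and E axis, 4 were at least 1.5-fold higher in both libraries and 1 was lower. Cdk4 was at 273 and 239 CPM against 182 and 148, and Rbl1, the p107 member of the Rb family and itself an E2F target, at 35.0 and 39.0 CPM against 13.2 and 11.3. Ccnd1, the cyclin partner of Cdk4, was at 312 and 356 CPM against 293 and 322, so Ccnd1 was nearly level between cycling and other macrophages, and Ccnd2 was at 5.49 and 2.84 CPM against 9.05 and 8.68. Of 14 inhibitors and exit genes, 4 were higher and 2 lower. The higher ones included Cdkn2c, the p18 inhibitor of Cdk4 and Cdk6, at 165 and 191 CPM against 43.4 and 40.0, and Cdkn2d, the p19 inhibitor, at 189 and 252 CPM against 38.6 and 49.0. The inhibitors Cdkn1a (p21) at 274 and 325 CPM against 254 and 299, and Cdkn1b (p27) at 32.3 and 30.3 CPM against 32.9 and 30.3, were close to level.

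**Figure D3:**
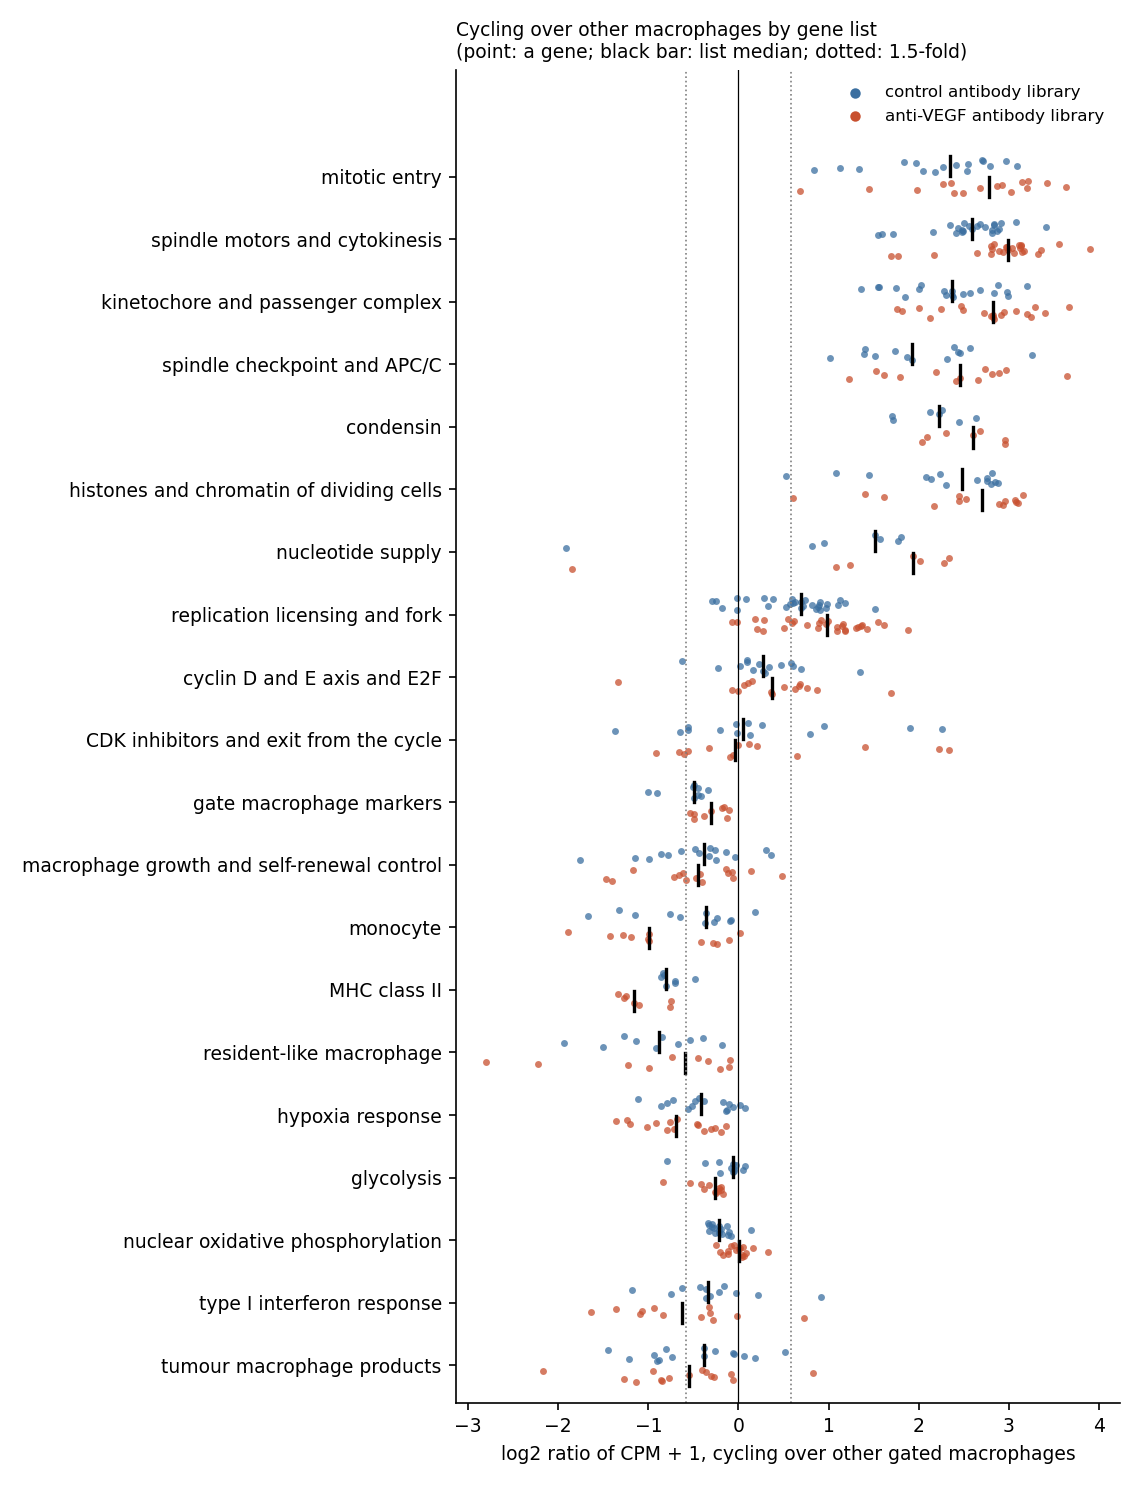
Log2 ratio of cycling over other macrophages (horizontal axis) for the genes of each list (rows), in the control and the anti-VEGF library, 1 point per gene with the median of the list. The mitosis lists lie furthest to the right, with medians between 1.92 and 2.59 in the control library, and the replication list lies closer to 0, at 0.69.

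Genes of macrophage identity were a smaller share of the UMIs in cycling macrophages. The median cycling macrophage held 34263 and 35598 UMIs, against 24141.5 and 23907 in the others. A lower CPM therefore need not mean fewer UMIs of a gene per cell. All 9 gate transcripts lay below 1-fold in both libraries, but 0 of 9 were 1.5-fold lower in both. C1qa was at 2420 and 2613 CPM against 3417 and 2926, and Apoe at 2160 and 1718 CPM against 4325 and 2499. Of 16 growth and self-renewal genes, 5 were at least 1.5-fold lower in both and 0 higher. Csf1r, the receptor for Csf1, was at 429 and 379 CPM against 534 and 418. Maf, which encodes c-Maf, was at 112 and 116 CPM against 203 and 184, lower in both libraries. Myc was at 54.2 and 61.4 CPM against 41.8 and 43.5.

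Genes of antigen presentation and of resident macrophages were also lower as a share of UMIs. Of 7 MHC class II genes, 6 were at least 1.5-fold lower in both libraries. H2-Aa, a chain of the class II molecule, was at 463 and 323 CPM in cycling macrophages against 826 and 815, and the invariant chain Cd74 at 1357 and 957 CPM against 2218 and 2058. A few cells held much of this: the median cycling macrophage had 1 UMI of H2-Aa in the control library and 0 in the anti-VEGF library, the most was 482 and 336, and the 5 highest cells held 15.6% and 25.8% of the UMIs. Of 10 genes of resident macrophages, 5 were lower in both, such as Selenop, a selenium carrier, at 161 and 133 CPM against 391 and 222, and Gas6, a bridge to dying cells, at 34.1 and 33.6 CPM against 98.9 and 68.0. Oxidative phosphorylation differed little, with 0 of 17 nuclear genes past 1.5-fold in both.

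The 10 genes with the lowest ratio included several of bone-resorbing and matrix-degrading cells. Mmp9, a gelatinase, was at 55.9 and 142 CPM against 792 and 903, and Ctsk, the cathepsin of osteoclasts, at 423 and 613 CPM against 2456 and 1934. Hmox1, which breaks down haem, was at 57.3 and 179 CPM against 253 and 659. Of 9 osteoclast genes, 7 were at least 1.5-fold lower in both libraries, with a summed level of 1520 and 1645 CPM against 6164 and 4920 in other macrophages. The median cell differed less, at 2.07 and 1.61 UMIs of the list per 10000 against 2.68 and 2.03. The highest cell held 260 and 482 per 10000 in cycling macrophages and 1058 and 981 in the others. The gap in the sums was thus not that of the median cell. The others of the 10 lowest genes were Slfn5, Hilpda, Ccl6, Acp5, Ccr1, Ckb and F13a1. Cells with osteoclast genes were part of both groups. Depth was greater in cycling macrophages, and cells with 2 markers of the list were counted without thinning. At these unlike depths such cells were 89.6% and 86.3% of cycling macrophages and 83.1% and 78.7% of the others. The part of such cells in these values was not tested. Without macrophages carrying 2 markers of another cell list, the osteoclast list among them, a step that kept 1858 of the 11069 macrophages and whose top 10% was 185 cells, 120 of them among the 1106, Ctsk was higher in cycling macrophages of the anti-VEGF library, with a log2 ratio of 2.86.

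The share of cycling cells differed along the levels of other gene lists, in most of them with fewer cycling cells in the highest quartile. Macrophages of both libraries were divided into quartiles of a list mean after thinning, and the share of cycling cells was taken in each. Many cells tied in their list mean, so the quartiles were not all of equal size. For MHC class II the lowest held 2249 control and 2256 anti-VEGF cells, and the second held 784 and 596. From the lowest to the highest quartile of the resident macrophage list, the share was 15.9% and 6.43% in the control library, a difference of -9.44 points, and 10.0% and 5.64% in the anti-VEGF library, -4.38 points. For MHC class II it was 13.3% and 8.31% (-4.98 points), then 10.3% and 4.68% (-5.60 points). For the interferon list the differences were 1.02 points (-1.08 to 3.21) and 0.777 points (-1.26 to 2.90), both intervals holding 0. For oxidative phosphorylation the libraries went opposite ways, from 11.3% to 9.03% in the control library (-2.29 points, -4.67 to -0.0417) and from 5.56% to 9.26% in the anti-VEGF library (3.70 points, 1.6 to 6.0). At full depth the control difference for that list was 2.06 points. For osteoclast genes the differences were -5.14 points in the control library and -2.02 points (-4.08 to 0.174) in the anti-VEGF library, where the interval held 0.

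The hypoxia list gave a steep gradient in both libraries. It holds genes that HIF, the factor stabilised at low oxygen, is known to induce. Cycling macrophages were 13.4%, 12.7%, 8.57% and 7.09% from the lowest to the highest quartile in the control library, and 14.9%, 11.9%, 8.74% and 4.0% in the anti-VEGF library. The drop was -6.28 points (-8.45 to -3.79) in the control library and -10.9 points (-13.6 to -8.54) in the anti-VEGF library. Counting intervals of the libraries overlapped in the lower 3 quartiles and did not overlap in the highest one, at 5.29 to 9.27 against 3.20 to 4.93. They cover cells of 1 library each and cannot decide a difference between antibodies. The highest quartile has no upper bound, and the median hypoxia level of other macrophages was 0.206 in control and 0.435 in anti-VEGF. Cells of that quartile therefore need not be alike in level between libraries.

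The libraries were spread differently over the hypoxia quartiles, and this moved with the share of cycling macrophages. The highest quartile held 691 of the control macrophages and 2076 of the anti-VEGF macrophages, and the lowest held 2617 and 877. In a step chosen after these shares were seen, the anti-VEGF shares were reweighted to the quartile sizes of the control library. The anti-VEGF share was then 11.6% against 11.4%, a difference of 0.179 points in place of -3.08. For glycolysis it was 10.8%, a difference of -0.622 points. For the other 6 lists (monocyte, MHC class II, resident, oxidative phosphorylation, interferon and osteoclast) the difference stayed between -3.38 and -2.38 points. Hypoxia and antibody cannot be told apart with 1 library each, and the part of hypoxia in the lower share was not tested.

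**Figure D4:**
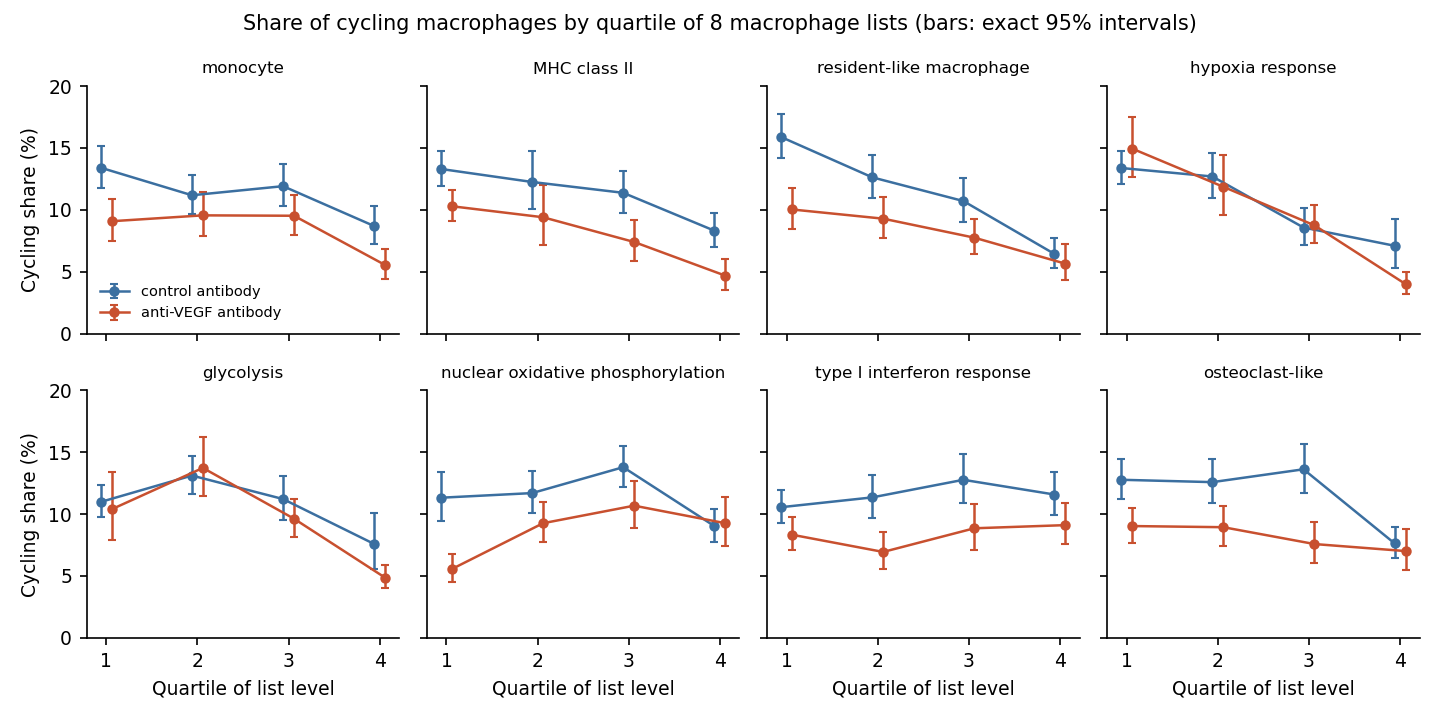
Share of macrophages called cycling (vertical axis, percent, exact binomial 95% intervals) by quartile of a list mean (horizontal axis), for the control and the anti-VEGF library, 1 panel per list. In the hypoxia panel the share goes from 13.4% to 7.09% in the control library and from 14.9% to 4.0% in the anti-VEGF library.

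Cycling macrophages of the anti-VEGF library differed from those of the control library in hypoxia, glycolysis and tissue-remodelling genes. Of 11292 genes tested in them, 2.56% were at least 1.5-fold higher in the anti-VEGF library and 1.65% at least 1.5-fold lower. In other macrophages the shares were 2.58% and 1.26% of 14075 genes. The median log2 ratio over all genes was -0.02 in cycling and -0.08 in other macrophages.

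Of 16 hypoxia genes, 9 were at least 1.5-fold higher in anti-VEGF cycling macrophages and 0 lower, with a median log2 ratio of 0.74 (0.85 in other macrophages). Adm, the vessel-dilating peptide adrenomedullin, was at 4.09 CPM (3.33 to 4.96) in control and 16.7 CPM (14.7 to 18.9) in anti-VEGF cycling macrophages, 4.09-fold. In other macrophages it was at 10.0 and 40.9 CPM, 4.08-fold, so the ratio was nearly the same from a higher level. Ndrg1 went from 72.6 to 155 CPM, 2.13-fold (2.01 to 2.27), against 3.31-fold (3.25 to 3.36) in other macrophages. Bnip3, which marks mitochondria for removal, was at 79.5 and 192 CPM, and Ankrd37 at 44.5 and 127 CPM. Slc2a1, the glucose transporter Glut1, was at 60.5 and 106 CPM, 1.76-fold against 2.53-fold in other macrophages. Vegfa itself, the target of the antibody, was at 92.2 and 108 CPM in cycling macrophages and at 126 and 173 CPM in the others.

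Glycolysis genes were at least 1.5-fold higher in 4 of 12, with a median of 0.52, while 11 of 12 were in other macrophages, with a median of 0.70. Pgk1, phosphoglycerate kinase, was at 566 and 940 CPM, and Slc16a3, the lactate exporter, at 63.2 and 145 CPM. Of 15 genes of tumour macrophage products, 9 were higher and 0 lower, with a median of 1.02 (0.95 in other macrophages). Spp1, the secreted phosphoprotein osteopontin, was at 2183 and 4792 CPM, and the median cycling macrophage had 27 UMIs of it in the control library and 60 in the anti-VEGF library. Arg1, which breaks down arginine, was at 405 and 986 CPM, with medians of 7 and 21 UMIs per cell. Slc7a2, an arginine transporter, was at 6.73 and 30.4 CPM. The median cell was thus higher for Spp1 and for Arg1 in the anti-VEGF library.

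By contrast, some of the largest ratios rested on few cells. Ly6a was at 10.3 and 51.0 CPM, 4.98-fold, with 54.3% and 56.9% of its UMIs in the 5 highest cells. For Mmp12, at 14.3 and 46.9 CPM, the 5 highest cells held 93.0% and 68.9%. Mmp9 was at 55.9 and 142 CPM, 2.54-fold against 1.14-fold in other macrophages, with 27.0% and 58.3% in 5 cells. The summed level of 6 neutrophil markers was 23.1 and 40.7 CPM in cycling macrophages, against 52.6 and 198 CPM in the others, and its part in these ratios was not tested. The other genes among the 10 highest were Hmox1 at 57.3 and 179 CPM, Cd36, a lipid scavenger receptor, at 36.1 and 86.0 CPM, and Clec4d, a C-type lectin, at 66.5 and 149 CPM.

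The lowest ratio in anti-VEGF cycling macrophages was that of Tmem176b, an ion channel gene, at 84.5 and 28.4 CPM, 0.336-fold, against 81 and 32.1 CPM in other macrophages. Fcrls, an Fc receptor-like scavenger gene, was at 78.9 and 32.2 CPM against 104 and 34.4. The heat shock genes Hspa1a, at 201 and 98.4 CPM, and Hspa1b, at 172 and 91.8 CPM, were lower too. Nfatc1, a factor of osteoclast formation, was at 197 and 119 CPM, and Prdm1 at 82.8 and 49.1 CPM. Each of these 6 genes was also lower in the other macrophages of the anti-VEGF library. Sgk1, a stress-regulated kinase, was at 71.5 and 42.4 CPM in cycling macrophages and at 136 and 137 CPM in the others, and Ctsh, Lst1 and Spata7 complete the 10 lowest.

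No MHC class II gene of 7 was past 1.5-fold, yet the list was lower, with a median log2 ratio of -0.46 in cycling and -0.04 in other macrophages. H2-Aa was at 463 CPM (455 to 472) in control and 323 CPM (314 to 332) in anti-VEGF cycling macrophages, 0.697-fold (0.674 to 0.720), against 826 and 815 CPM in the others, 0.987-fold. With the H2-Aa UMIs held in few cells, as above, the counting interval understates the spread. Among the 1858 macrophages without 2 markers of another cell list, the median of the MHC class II list in cycling macrophages was 0.256, in the opposite direction.

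Cell-cycle genes of the cycling macrophages are described only, since 1 pooled score chose the cells of both libraries by genes of this kind and so draws their levels together. Medians of the 5 mitosis lists lay between 0.02 and 0.07, and those of replication, nucleotide and chromatin genes between -0.13 and -0.11, with 0 of 30 replication genes past 1.5-fold. In other macrophages, chosen by the same score, the mitosis medians lay between -0.41 and -0.34 and the replication median was -0.46. Among inhibitors, Cdkn2a was at 15.2 and 35.0 CPM, 2.30-fold, and at 7.39 and 12.6 CPM in other macrophages.

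**Figure D5:**
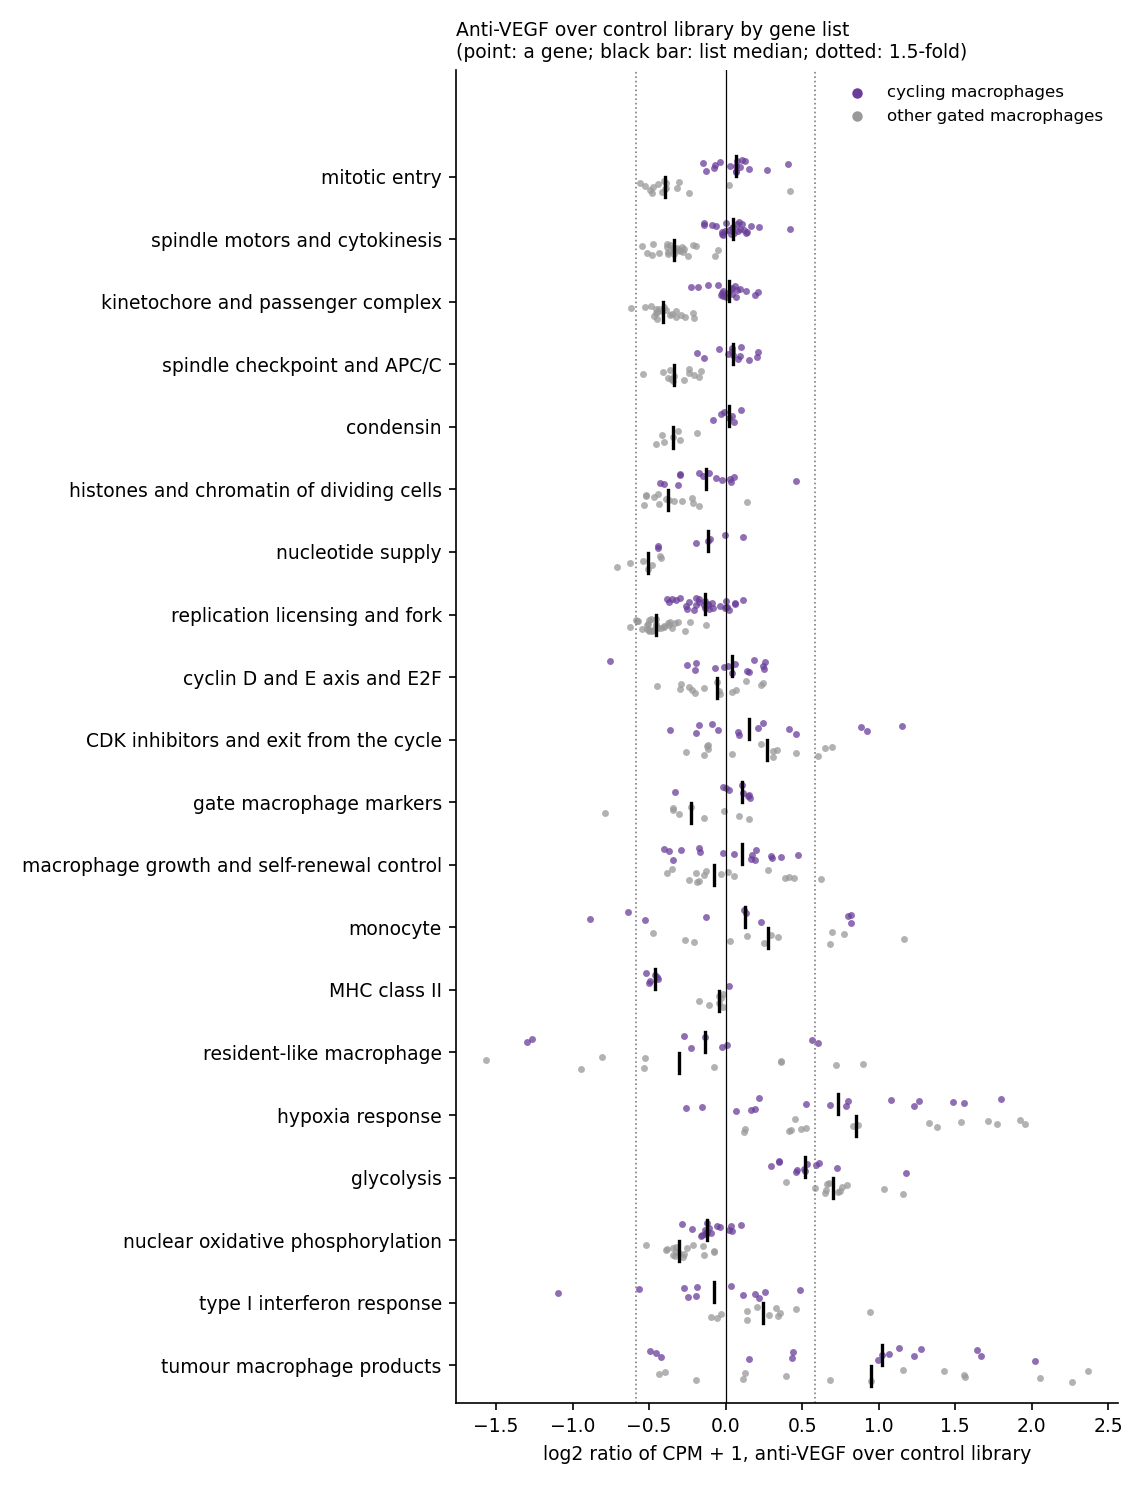
Log2 ratio of anti-VEGF over control (horizontal axis) for the genes of each list (rows), in cycling and in other macrophages, 1 point per gene with the median of the list. In cycling macrophages the hypoxia and tumour product lists lie to the right (medians 0.74 and 1.02) and the mitosis lists lie near 0.

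Transcripts of lymphoid and stromal cells were low in cycling macrophages, apart from a few control cells with NK-cell genes. The NK-cell list summed to 29.8 CPM in control and 0.839 CPM in anti-VEGF cycling macrophages, against 17.7 and 4.11 in the others. Its largest member was Gzma, a granzyme of cytotoxic lymphocytes, at 18.0 and 0.0645 CPM, and 5 cells held 99.3% of its control UMIs. T-cell genes summed to 3.45 and 0.839 CPM, and collagen and mesothelial genes to 5.81 and 6.78 CPM. The gate allowed no UMI of Cd3e and at most 2 UMIs of Col3a1 and Col1a2, which belong to these lists. Low T-cell and collagen sums were thus partly set by the gate and only describe the cells. The defining markers Krt18, Krt19, Upk3b, Wt1, Tek and Fcer1a were at 0 in cycling macrophages of both libraries. Whether doublets took part in the deeper UMI counts of cycling macrophages was not tested.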

How the data were processed

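The deposited values were raw UMI counts per gene and barcode, not normalised, made with Cell Ranger 3.0.2 on mm10, as the submitters' processing notes name them. The headers of the matrices name 3.1.0 as their software version. Tumours were dissociated with collagenase and DNase and CD45+ cells negative for propidium iodide were sorted, per the labels' protocols. The matrices held 31053 features, of which 71 shared a symbol, and the libraries summed to 2.33687e+08 (control) and 2.13949e+08 (anti-VEGF) UMIs, with medians of 17293 and 21781 per barcode.

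The cycling macrophages and the gene lists were chosen with earlier results of these data known. Each library was 1 sample per group, so no test was run. UMIs were summed over the cells of a class and library and divided by the class total (CPM). Ratios used a pseudocount of 1 CPM on the log2 scale and genes with at least 30 summed UMIs, and a gene was counted as higher or lower past 1.5-fold. Linear folds in the text are ratios of the CPM values. Intervals at 95% were exact (Poisson for levels, conditional binomial for ratios, Clopper-Pearson for shares) or, for differences of shares, Newcombe's. Reads with the same UMI had been collapsed, but cells of 1 library share their source, so all intervals cover counting error only. Named genes were those of 30 lists (350 genes) and, in each comparison, the 10 highest and 10 lowest ratios among genes with at least 50 CPM and detected in 10% of cells. Genes of antigen receptors, haemoglobin, ribosomes and mitochondria, predicted genes, Xist and Y-linked genes were left out of that ranking. 1 list gene whose symbol 2 features share was left out.

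For shares across depths, phases and list quartiles, each cell was thinned to 5000 UMIs with a fixed seed, and to 1000 for the comparison with neutrophil-marked cells (at least 3 of 6 neutrophil markers and at most 2 macrophage markers). No doublet caller was run here. Cells with 2 markers of another cell list were left out as an alternative. Quartiles were set over both libraries, and tied cells made some of them unequal in size. The steps were tested on simulated counts. Python 3.11.15, numpy 2.4.6, scipy 1.17.1, pandas 2.3.3 and statsmodels 0.14.6 were used.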

Additional observations from a re-analysis of the deposited data

Results flagged for a closer look

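Cells outside the macrophage gate also scored above 1.45724, data that the comparisons above do not use. Among barcodes with at least 5000 UMIs and over 2 collagen UMIs they were 57 of 550, 10.4%, in the control library and 68 of 825, 8.24%, in the anti-VEGF library. With fewer than 5 macrophage transcripts they were 30 of 641, 4.68%, and 27 of 817, 3.30%. With macrophage transcripts and a UMI of Cd3e they were 15 of 146, 10.3%, and 5 of 74, 6.76%. Below 5000 UMIs they were 172 of 3427, 5.02%, and 22 of 1428, 1.54%, at median depths of 1391 and 1356 UMIs. The sets with at least 5000 UMIs also met the gate's limit of 10% mitochondrial UMIs. Those named by macrophage transcripts also met its collagen limit. The set below 5000 UMIs did not hold all barcodes of that depth. In all 4 of these sets the share was lower in the anti-VEGF library, but the exact intervals overlapped in each set with at least 5000 UMIs. They were 7.94 to 13.2 against 6.46 to 10.3 for the collagen set and 3.18 to 6.61 against 2.19 to 4.77 for few macrophage transcripts. For the Cd3e set they were 5.87 to 16.4 against 2.23 to 15.1. Below 5000 UMIs they were 4.31 to 5.80 against 0.968 to 2.32, at depths where each UMI weighs more in the score.

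For 3 lists the median log2 ratio had opposite signs in the sets compared and was past 0.1 in both directions, and the difference was not tested. Other lists had opposite signs nearer to 0 in 1 of the sets. The 9 gate transcripts had a median of 0.110 for anti-VEGF over control in cycling macrophages and -0.224 in other macrophages, but the first of these was below 0 in 5 other settings, between -0.113 and -0.016. Osteoclast genes had 0.309 and -0.345. The NK-cell list had 0.663 for cycling over other macrophages in the control library and -0.697 in the anti-VEGF library, and 5 control cells held nearly all of its Gzma UMIs.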

How the results depend on the processing

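Across the settings, 115 of 137 summary values stayed within their spread or within 1.5 times the reported count, 20 moved and 2 changed direction. Of 3589 values for single genes 5 changed direction, and of 966 list medians 16 did. The share difference was -1.45 points with the top 5% of scores and -6.07 with the top 20%. Reweighted to control quartile sizes, a step added after the data were seen, it was 0.179 (hypoxia) and -0.622 (glycolysis). Genes lower in both libraries were 371 with the top 20%. With a pseudocount of 10 CPM, 71 genes were higher and 26 lower in anti-VEGF cycling macrophages, and 512 higher and 169 lower in cycling than other macrophages; with at least 100 UMIs, 102 were lower in anti-VEGF. Without cells carrying 2 markers of another list, which kept 1858 macrophages and 185 cycling ones, these were 448 higher and 326 lower in anti-VEGF, and 438 lower in both libraries. There the median for MHC class II was 0.256 (anti-VEGF over control), oxidative phosphorylation 0.0087 (cycling over other, control) and gate transcripts 0.0078 (anti-VEGF); Ctsk was 2.86 and Egln3 0.0234 (cycling over other, anti-VEGF), and Ccl6 -0.0064. A version that kept osteoclast genes out of that step, added after the data were seen, left 988 cycling macrophages and moved none of its 5 summary values.

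Highest minus lowest quartile at full depth was -7.41 points for MHC class II (anti-VEGF) and 2.06 for oxidative phosphorylation (control), and glycolysis was -8.76 (anti-VEGF) with bounds set within each library. With the 80th percentile, 356 and 200 cycling macrophages were high in both means, 0 and 2 in replication only and 0 and 1 in neither. Anti-VEGF over control in cycling macrophages, gate transcripts had -0.109 (top 5%), -0.113 (top 20%), -0.016 (thinned), -0.076 (without cells of another list) and -0.017 (a score of other mitosis genes). Growth genes had -0.082, -0.075 and -0.020 in the first 3, and monocyte genes -0.088 (top 5%), -0.012 (at least 10000 UMIs), -0.044 (at most 5% mitochondrial) and -0.107 (other score). Interferon genes had 0.095 (cycling over other, control, top 5%). Lyve1 was 0.0779 (cycling over other, control, top 20%) and 0.250 (anti-VEGF over control, other score). No paired analysis was possible because each group has 1 library, and no library could be left out.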

Other observations

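Interferon-stimulated genes held 1 member that went against its list. Cxcl10, a chemokine that draws T cells, was at 435 CPM in control and 366 CPM in anti-VEGF cycling macrophages, against 229 and 221 CPM in other macrophages, so it was higher in cycling macrophages of both libraries. Of the 12 interferon genes it was the 1 that was at least 1.5-fold higher in both, while 3 were at least 1.5-fold lower. Of 12 monocyte genes, 11 lay below 1-fold in cycling macrophages of both libraries, and 5 were at least 1.5-fold lower in both. The 1 gene above 1-fold in both was Ccr2, the receptor that brings monocytes out of the marrow. It was at 191 and 122 CPM in cycling macrophages against 167 and 120 CPM in the others. Fn1, fibronectin, was at 529 and 934 CPM against 686 and 1100.0.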
